A study of Mus musculus with 8 samples.

Results

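The amino acid transporter families Slc1, Slc3, Slc6, Slc7, Slc36, Slc38 and Slc43 were examined in the livers of mice labelled as lacking Rictor in hepatocytes and of wild-type mice. Members were all genes whose symbol in the array's annotation begins with Slc1a, Slc3a, Slc6a, Slc7a, Slc36a, Slc38a or Slc43a. This gave 64 of the 19938 genes represented on the array, each read through its brightest probe set with a single gene symbol. The knockout group was 4 adult male mice with a Rictor gene flanked by LoxP sites and an albumin-Cre transgene, which drives recombination in hepatocytes, so that other liver cells keep the gene. The wild-type group was 4 adult male mice whose genotype is given as wild type; the sources used here do not state the strain, or whether the wild-type mice carried the floxed allele or the transgene. All 8 mice had been fasted for 16 h and then fed freely for 3 h. Each liver was hybridised to 1 Affymetrix Mouse Gene 1.0 ST array, and the values are RMA expression values taken as log2.

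Amino acids cross membranes through carriers that differ in substrate, in coupling to sodium or protons, and in whether they exchange or accumulate. Hepatocytes take up alanine, glutamine and other neutral amino acids mainly through the sodium-coupled Slc38 carriers called systems A and N, and arginine through cationic carriers of the Slc7 family. Other Slc7 proteins are light chains that reach the surface only when bound to a heavy chain of the Slc3 family. Some members sit on lysosomes, where they report amino acids to mTOR complex 1. Rictor is a subunit of the other mTOR complex, mTORC2, which phosphorylates Akt in response to insulin, and insulin is known to stimulate system A transport.

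The Rictor probe set read 9.15, 9.51, 9.68 and 9.47 on knockout-labelled arrays 1 to 4, against 9.47, 9.28, 9.23 and 9.64 on wild-type arrays 1 to 4. The groups overlapped; it averaged 9.45 ± 0.22 on the knockout-labelled arrays and 9.40 ± 0.19 on the wild-type arrays (SD, n = 4 each; difference 0.05, SE 0.13; limma adjusted p = 0.936), so it did not check the genotype labels, which are kept here as given. The exons it covers were not examined. The arrays numbered 1 stood apart from their own groups. Along principal component 1, with 35.8% of the variance, knockout-labelled arrays 2 to 4 lay between 17.3 and 19.3 and knockout-labelled array 1 at -13.1, whereas wild-type arrays 2 to 4 lay between -14.5 and -12.6 and wild-type array 1 at -1.24. Where leaving them out changed the call of a gene named here, both values are given, and for the 28 members with a mean above 7 both fits are plotted. All 7 hepatocyte markers examined (Alb, Ttr, Apoa1, Serpina1c, Tat, Cyp2e1 and Fgb) were bright, and their mean lay between 13.92 and 13.97 on the knockout-labelled arrays and between 13.87 and 13.95 on the wild-type arrays. Because whole liver was used, fewer cells of a type and less RNA per cell cannot be told apart. Nothing in the labels says more about the origin of the 4 samples of a group, so p-values measure the spread between these samples.

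None of the 64 members passed the test after correction over all probe sets, and 39 of them had a difference smaller than its own SE. How many of all genes had a difference below its SE was not counted. With limma and Benjamini-Hochberg adjustment 0 of 64 members passed an adjusted p of 0.05, where 0% of all 19938 genes passed; the lowest adjusted p among members was 0.389. Without adjustment 3 members, or 4.69%, had a limma p below 0.05, against 10.5% of all genes: 1 was higher (Slc1a5), where 3.84% of all genes were, and 2 were lower (Slc38a6 and Slc36a4), where 6.61% were. The mean of the knockout-labelled group was higher for 30 members and lower for 34, a split that turned to 39 and 25 after quantile normalisation of the deposited values and to 37 and 27 after centring each array on its median. The median difference over the members (knockout-labelled minus wild type, log2) was -0.0044, against -0.020 over all genes. The median size of the difference, sign disregarded, was 0.065 over the members and 0.082 over all genes.

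Brightness divided the members into bright, dim and floor classes. No detection calls came with the values, so a floor was set from 1194 odorant and vomeronasal receptor genes, which liver is not known to express: a gene whose mean over the 8 arrays was at or below their 95th percentile, 6.34, was placed at the floor. Genes with a mean at or above 9.23, the 75th percentile of all genes, were called bright, and the remainder dim. By these limits 17 members were bright, 28 dim and 19 at the floor. Just inside the bright limit was Slc3a1 with a mean of 9.24 and just outside it Slc36a4 with 9.19; at the lower limit Slc36a3 was dim with 6.36 and Slc38a8 at the floor with 6.31. Brightness depends on the probes of a set as well as on the transcript, so the classes do not rank genes by abundance.

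**Figure D1:**
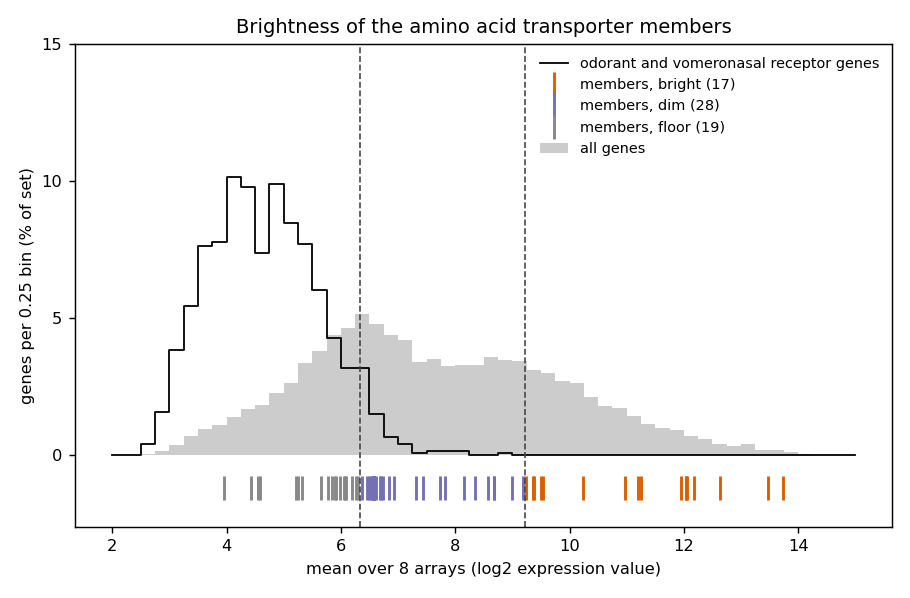
Distribution of gene means over the 8 arrays (x axis, log2 expression value; y axis, percent of each set per bin of 0.25) for all genes (grey bars) and for odorant and vomeronasal receptor genes (black line), with each member as a tick below the axis. The dashed lines are the limits at 6.34 and 9.23, which leave 19 members at the floor, 28 dim and 17 bright.

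The bright members came from every family examined: 6 of 11 in Slc38, 4 of 21 in Slc6, both of Slc3, 2 of 3 in Slc43, and 1 each of 7 in Slc1, 16 in Slc7 and 4 in Slc36. None of these 17 had groups that were separate from each other, and the 95% interval of the difference included 0 for all 17. For 13 of them it lay wholly within 0.5 on the log2 scale, a 1.41-fold change, on either side of 0. The median size of the difference was 0.097 in the bright members and 0.12 in all 4985 bright genes, of which 19.5% had an unadjusted limma p below 0.05, against 0 of the 17 members.

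None of the carriers of systems A and N passed, and their differences were 0.10 or less on the log2 scale. Slc38a3, the system N glutamine carrier SNAT3, read 13.71, 13.79, 13.73 and 13.72 on knockout-labelled arrays 1 to 4, against 13.67, 13.72, 13.78 and 13.79 on wild-type arrays 1 to 4. All 8 values fell within a narrow band, and the interval of the difference ran from -0.12 to 0.11 (limma adjusted p = 0.987). Slc38a4, the system A carrier SNAT4, which is abundant in liver, read 13.46, 13.59, 13.56 and 13.49 on the knockout-labelled arrays and 13.37, 13.38, 13.46 and 13.50 on the wild-type arrays. All 4 knockout-labelled values lay above the wild-type mean, but the groups overlapped, and the difference of 0.10 (SE 0.06) did not pass (limma adjusted p = 0.591). Slc38a2 encodes SNAT2, the system A carrier that cells induce when amino acids are short. Its values were 11.88, 12.06, 12.04 and 11.94 on the knockout-labelled arrays, against 11.75, 11.69, 12.02 and 12.21 on the wild-type arrays. The wild-type arrays spanned a wider range that contained every knockout-labelled value, and the difference of 0.06 (SE 0.11) changed sign when wild-type array 2 was left out (-0.016). The remaining carriers of the group, Slc38a1 (SNAT1) and Slc38a5 (SNAT5), were dim, with differences of 0.04 and -0.07. The second probe set of Slc38a1 gave 0.14.

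Of the other Slc38 genes, 5 of 6 had a lower mean on the knockout-labelled arrays, and none passed. Over all 19938 genes, 11353 had a lower mean. Slc38a8 and Slc38a11, among those 5, were at the floor, with differences of -0.02 and -0.10. Slc38a9, the lysosomal protein that senses arginine for mTOR complex 1, read 9.47, 9.33, 9.49 and 9.56 on the knockout-labelled arrays and 9.62, 9.50, 9.47 and 9.60 on the wild-type arrays. The groups overlapped (difference -0.08, SE 0.09; limma adjusted p = 0.798), and its second probe set gave -0.06. Slc38a7, which exports glutamine from lysosomes, read 9.42, 9.24, 9.42 and 9.06 on the knockout-labelled arrays, against 9.27, 9.44, 9.63 and 9.41 on the wild-type arrays. Every knockout-labelled value lay below the wild-type mean, yet wild-type arrays 1 and 4 lay among them (difference -0.15, SE 0.11; limma adjusted p = 0.672). Slc38a10 was the steadiest bright member within the knockout-labelled group, at 9.56, 9.57, 9.56 and 9.55, against 9.48, 9.48, 9.65 and 9.44 on the wild-type arrays. Slc38a6, a dim member, had the second smallest p of all members: it read 8.52, 8.29, 8.61 and 8.82 on the knockout-labelled arrays and 8.76, 8.81, 8.78 and 8.90 on the wild-type arrays. Knockout-labelled array 4 lay within the wild-type range, and the difference of -0.25 (SE 0.11) did not pass (limma adjusted p = 0.438).

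**Figure D2:**
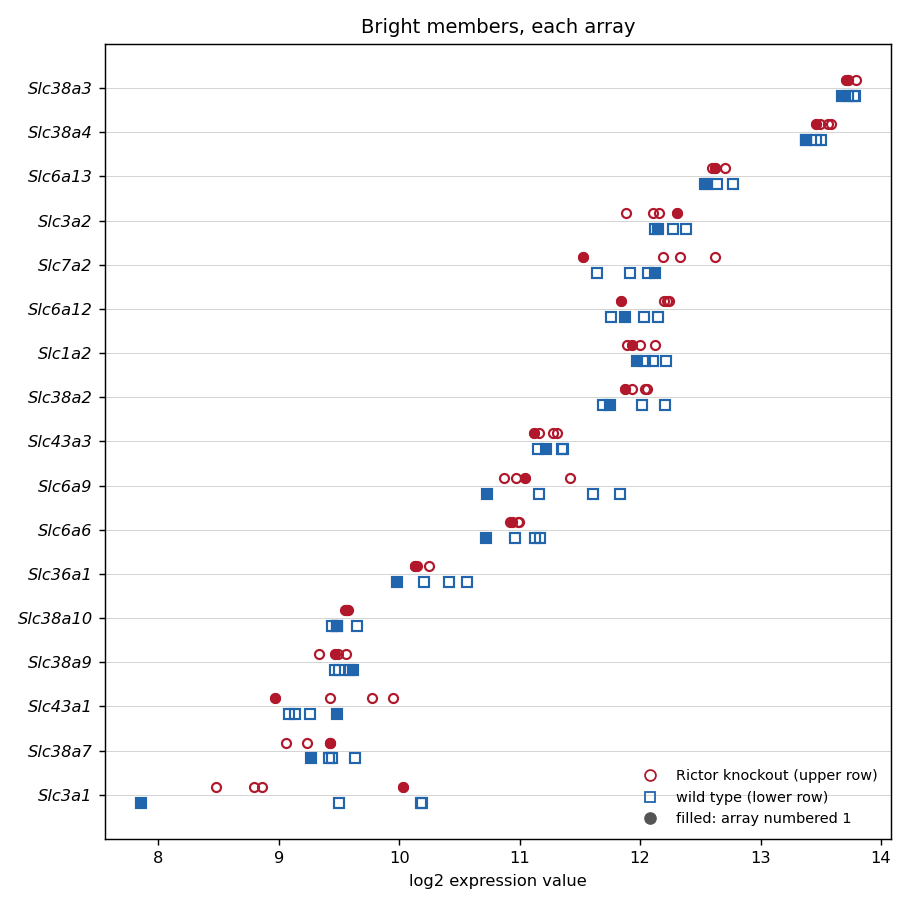
Log2 expression values (x axis) of the 17 bright members on each array, knockout-labelled arrays as red circles in the upper row and wild-type arrays as blue squares in the lower row, with the arrays numbered 1 filled. The groups overlap for every gene shown; Slc38a3 spans the least and Slc3a1, from 7.86 to 10.19, the most.

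Several heavy chains, light chains and exchangers belong to a group of genes known to be induced when amino acids run short, so promoter sequences are shown before their values. In that response the factor ATF4 acts through an element whose core was searched here as TGATGNAA on both strands of RefSeq promoter windows (GRCm38.p6), which run from 250 bases before to 50 bases after each start. Windows were found for 47 members, 68 windows in all, and 5 of the 68 held the letters, or 7.35%, against 3.97% of all 32851 windows. They belonged to 4 genes, Slc1a4, Slc7a7, Slc7a11 and Slc6a21. The Slc7a7 windows that held the letters overlap and share a match, so that match is counted in each of them. The FoxO element, searched as GTAAACA on both strands, was in 2 of the 68 windows, those of Slc36a3 and Slc7a11, or 2.94%, against 3.65% of all windows. In these windows no match of one motif overlapped a match of the other. A window with the ATF4 letters is printed for each of the 4 genes from 150 bases before to 7 bases after the start, 5′ to 3′ on the strand of the gene, with matches on either strand in capitals. Slc3a1 is added as the most variable member; it has no match, which says only that these letters are not in its window. The stretches lie at chr17:85028197-85028353 (plus strand) for Slc3a1, chr11:20332707-20332863 (minus strand) for Slc1a4, chr14:54417938-54418094 (minus strand) for Slc7a7, chr3:50443607-50443763 (minus strand) for Slc7a11 and chr7:45282723-45282879 (plus strand) for Slc6a21.
Slc3a1: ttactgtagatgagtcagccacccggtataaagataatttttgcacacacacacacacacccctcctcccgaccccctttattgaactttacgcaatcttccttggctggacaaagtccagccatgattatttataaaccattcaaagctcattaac
Slc1a4: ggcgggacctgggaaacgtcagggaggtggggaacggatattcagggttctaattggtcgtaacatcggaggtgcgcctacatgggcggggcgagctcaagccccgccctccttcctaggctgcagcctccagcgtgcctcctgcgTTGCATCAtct
Slc7a7: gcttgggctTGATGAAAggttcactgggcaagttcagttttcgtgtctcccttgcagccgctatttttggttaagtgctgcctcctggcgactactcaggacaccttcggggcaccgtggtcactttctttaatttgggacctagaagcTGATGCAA
Slc7a11: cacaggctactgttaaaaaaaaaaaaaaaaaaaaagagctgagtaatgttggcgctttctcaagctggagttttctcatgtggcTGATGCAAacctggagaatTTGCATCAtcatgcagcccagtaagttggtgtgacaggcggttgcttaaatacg
Slc6a21: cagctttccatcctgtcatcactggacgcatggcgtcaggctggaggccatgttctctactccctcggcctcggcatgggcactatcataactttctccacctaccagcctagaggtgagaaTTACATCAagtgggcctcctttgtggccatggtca

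The Slc3 heavy chains were both bright but differed in spread. Slc3a2, the CD98 heavy chain, which partners most light chains, read 12.31, 12.11, 12.16 and 11.89 on the knockout-labelled arrays, against 12.15, 12.12, 12.38 and 12.27 on the wild-type arrays. These groups overlapped (difference -0.12, SE 0.10; limma adjusted p = 0.717), and over single omissions the difference ran between -0.18, without knockout-labelled array 1, and -0.04, without knockout-labelled array 4. Slc3a1 encodes rBAT, the heavy chain for cystine and dibasic amino acid uptake in kidney and intestine. It read 10.03, 8.86, 8.48 and 8.79 on the knockout-labelled arrays and 7.86, 9.50, 10.19 and 10.18 on the wild-type arrays. Knockout-labelled array 1 lay at the level of wild-type arrays 2 to 4, and wild-type array 1 was the lowest of all 8. With an SD over the 8 arrays of 0.87 it was the most variable member. Its mean was 9.04 ± 0.68 in the knockout-labelled group and 9.43 ± 1.10 in the wild-type group (SD, n = 4 each), a difference of -0.39 (SE 0.46; limma adjusted p = 0.812). With single arrays left out that difference lay between -0.92, without wild-type array 1, and -0.14, without wild-type array 3. Of the cholangiocyte markers, Sox9 read 10.07, 9.18, 9.25 and 9.54 on the knockout-labelled arrays, against 9.32, 9.68, 10.49 and 10.33 on the wild-type arrays. Sox9 too was high on knockout-labelled array 1 and low on wild-type array 1 within its group, and it was singled out after its values were seen. Sox9, Epcam and Cftr differed by -0.44, -0.46 and -0.046, whereas Krt19 and Krt7 differed by 0.02 and 0.11. The mean of the 5 measured markers (Krt19, Krt7, Epcam, Sox9 and Cftr, the last at the floor) lay between 6.83 and 7.25 on the knockout-labelled arrays and between 6.88 and 7.35 on the wild-type arrays, with 3 of 5 lower in the knockout-labelled group and none passing. Their part in the Slc3a1 values was not tested. Slc7a9, the light chain that pairs with rBAT in kidney, was at the floor, with a mean of 5.85.

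No light chain was bright, and 5 of the 10 were at the floor. Slc7a5 (LAT1), which exchanges large neutral amino acids when bound to CD98, read 8.99, 9.15, 9.19 and 8.95 on the knockout-labelled arrays, against 9.48, 8.75, 8.83 and 8.61 on the wild-type arrays. Wild-type array 1 was the highest of all and the other wild-type arrays were the lowest, so the difference was 0.15 with all arrays (SE 0.16; limma adjusted p = 0.791) and 0.34 without that array (limma adjusted p = 0.192). Slc7a8 (LAT2) read 8.72, 8.17, 8.46 and 8.47 on the knockout-labelled arrays and 8.91, 8.76, 8.67 and 8.38 on the wild-type arrays, with overlapping groups and a difference of -0.23 (SE 0.13; limma adjusted p = 0.572). Slc7a7 (y+LAT1), which exports cationic amino acids and is also expressed by macrophages, gave 7.82, 7.63, 7.97 and 7.94 on the knockout-labelled arrays, against 8.23, 7.73, 7.81 and 7.47 on the wild-type arrays. The highest and the lowest value were both wild-type, and the difference was 0.03 (SE 0.14). The mean of 7 Kupffer cell markers lay between 9.21 and 10.15 on the knockout-labelled arrays and between 8.97 and 9.73 on the wild-type arrays, none of the 7 at the floor; its part in the Slc7a7 values was not tested. Slc7a11 (xCT), the cystine-glutamate exchanger, was at the floor with 5.22, as were Slc7a12, Slc7a13 and Slc7a15, whereas Slc7a6 and Slc7a10 were dim, at 6.57 and 6.56. Slc7a6os also falls under the naming rule but is the gene opposite Slc7a6 and no transporter; it differed by -0.01, and a similar opposite-strand gene, Slc6a19os, was at the floor. Which strand their probes read was not examined.

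Among the cationic carriers Slc7a2 (CAT2), the main arginine carrier of hepatocytes, was bright. It read 11.52, 12.62, 12.33 and 12.19 on the knockout-labelled arrays, against 12.13, 11.92, 11.64 and 12.07 on the wild-type arrays. Knockout-labelled arrays 2 to 4 were the 3 highest values and knockout-labelled array 1 the lowest. The difference was 0.23 (SE 0.19; limma adjusted p = 0.718), and omitting single knockout-labelled arrays moved it to 0.44 for array 1 (limma adjusted p = 0.0716) and to 0.08 for array 2. Slc7a1 (CAT1), the widespread arginine carrier that is low in liver, was the steadiest member of all, with an SD over the 8 arrays of 0.03 around 7.44. Slc7a4 was dim, and Slc7a3 and Slc7a14 were at the floor.

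Of the Slc1 carriers only Slc1a2 was bright; it encodes GLT-1, a glutamate carrier that in liver belongs to the hepatocytes around the central vein. It read 11.93, 12.12, 12.00 and 11.90 on the knockout-labelled arrays and 11.97, 12.11, 12.04 and 12.21 on the wild-type arrays. The groups overlapped (difference -0.10, SE 0.08; limma adjusted p = 0.719). Beside it, 8 pericentral markers including Glul and Oat were averaged. Their mean lay between 11.41 and 11.56 on the knockout-labelled arrays and between 11.49 and 11.64 on the wild-type arrays. In the knockout-labelled group 6 of 8 were lower and none passed, where 11353 of all 19938 genes were lower. Glul and Tbx3 were the 2 higher, each by 0.03. The part of these markers in the Slc1a2 values was not tested. Slc1a3 and Slc1a6 were dim, and Slc1a1 and Slc1a7 were at the floor. The neutral exchangers had differences of opposite sign, and neither passed. Slc1a5 (ASCT2), a sodium-dependent glutamine exchanger, had the smallest p of all members: it read 7.32, 7.28, 7.57 and 7.63 on the knockout-labelled arrays, against 7.30, 6.99, 7.23 and 7.26 on the wild-type arrays. All 4 knockout-labelled values exceeded the wild-type mean, but wild-type array 1 lay above knockout-labelled array 2 (difference 0.26, SE 0.10; limma adjusted p = 0.389). With array weights the difference was 0.38 and the limma adjusted p 0.0510. Slc1a4 (ASCT1), an exchanger of alanine, serine and cysteine, read 8.0, 7.50, 7.67 and 7.18 on the knockout-labelled arrays and 7.25, 8.11, 8.06 and 8.10 on the wild-type arrays. As in Slc3a1, wild-type array 1 was far below the rest of its group and knockout-labelled array 1 was the highest of its own. The difference was -0.29 (SE 0.20; limma adjusted p = 0.640), from -0.50 without wild-type array 1 to -0.16 without knockout-labelled array 4.

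The Slc6 members that were bright carry osmolytes and glycine. Slc6a13 (GAT2), a carrier of GABA and taurine, read 12.62, 12.70, 12.62 and 12.60 on the knockout-labelled arrays, against 12.53, 12.64, 12.77 and 12.56 on the wild-type arrays, a difference of 0.01 (SE 0.07) whose sign turned after quantile normalisation (-0.012). Slc6a12 (BGT1), the betaine carrier, read 11.84, 12.24, 12.20 and 12.22 on the knockout-labelled arrays and 11.88, 11.76, 12.15 and 12.03 on the wild-type arrays. Its 3 highest values were knockout-labelled arrays 2 to 4, and the difference was 0.17 (SE 0.11; limma adjusted p = 0.612), or 0.27 without knockout-labelled array 1 (limma adjusted p = 0.131). Slc6a9 (GlyT1), a glycine carrier, read 11.04, 10.97, 11.42 and 10.87 on the knockout-labelled arrays and 10.73, 11.16, 11.84 and 11.61 on the wild-type arrays. The wild-type group held the lowest value, on array 1, and the pair of highest values (difference -0.26, SE 0.20; limma adjusted p = 0.695); the difference was -0.46 without wild-type array 1 (limma adjusted p = 0.246) but -0.09 without wild-type array 3. Slc6a6, the taurine carrier, read 10.94, 10.92, 11.00 and 10.98 on the knockout-labelled arrays, against 10.72, 10.97, 11.12 and 11.17 on the wild-type arrays. Its knockout-labelled values lay inside the wild-type range (difference -0.03, SE 0.10). The creatine carrier Slc6a8 was dim, at 8.20 ± 0.28 in the knockout-labelled group and 8.09 ± 0.10 in the wild-type group (SD, n = 4 each). The transporters of dopamine (Slc6a3, mean 6.83) and serotonin (Slc6a4, mean 6.58) were dim, below 7. That of noradrenaline (Slc6a2) and the renal and intestinal carrier Slc6a19 were at the floor. Of the odorant and vomeronasal receptor genes, 18 had means between 6.5 and 6.75 and 8 between 6.75 and 7. A dim call below 7 is therefore not read as expression.

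In the proton-coupled Slc36 family Slc36a1 (PAT1), which releases amino acids from lysosomes, read 10.13, 10.25, 10.13 and 10.14 on the knockout-labelled arrays and 9.98, 10.21, 10.41 and 10.56 on the wild-type arrays. All knockout-labelled values lay below the wild-type mean, within the wider wild-type range (difference -0.13, SE 0.12; limma adjusted p = 0.760). That difference was -0.23 without wild-type array 1 and -0.04 without wild-type array 4. Slc36a4 (PAT4), a proton-independent carrier of proline and tryptophan, read 9.23, 8.85, 9.15 and 9.11 on the knockout-labelled arrays, against 9.32, 9.25, 9.30 and 9.33 on the wild-type arrays. It was the 1 member of 64, or 1.56%, whose groups did not overlap, where 4.42% of all genes had such groups and 2.61% had the knockout-labelled group below; it is named for that reason, after its values were seen. Knockout-labelled array 1 lay just below wild-type array 2. The difference was -0.22 with an SE of 0.10 (limma adjusted p = 0.454), and the exact two-sided permutation test gave p = 0.0286, the smallest that 4 arrays against 4 allow.

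The Slc43 family includes uniporters of large neutral amino acids. Slc43a1 (LAT3) read 8.97, 9.77, 9.42 and 9.95 on the knockout-labelled arrays, against 9.48, 9.14, 9.26 and 9.09 on the wild-type arrays. Knockout-labelled arrays 2 and 4 were the highest, knockout-labelled array 1 the lowest, and wild-type array 1 the highest of its group. At 0.29 (SE 0.18) it had the largest positive difference of the 64 members with all arrays at equal weights, and it did not pass (limma adjusted p = 0.604). Without knockout-labelled array 1 the difference was 0.47 (limma adjusted p = 0.0728), and without array 4 of the same group it was 0.15. Slc43a2 (LAT4) was dim and averaged 8.34 ± 0.21 in the knockout-labelled group and 8.34 ± 0.16 in the wild-type group (SD, n = 4 each). Slc43a3, which carries purine nucleobases and not amino acids, read 11.12, 11.16, 11.28 and 11.31 on the knockout-labelled arrays and 11.22, 11.35, 11.36 and 11.15 on the wild-type arrays, with overlapping groups (difference -0.05, SE 0.09).

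**Figure D3:**
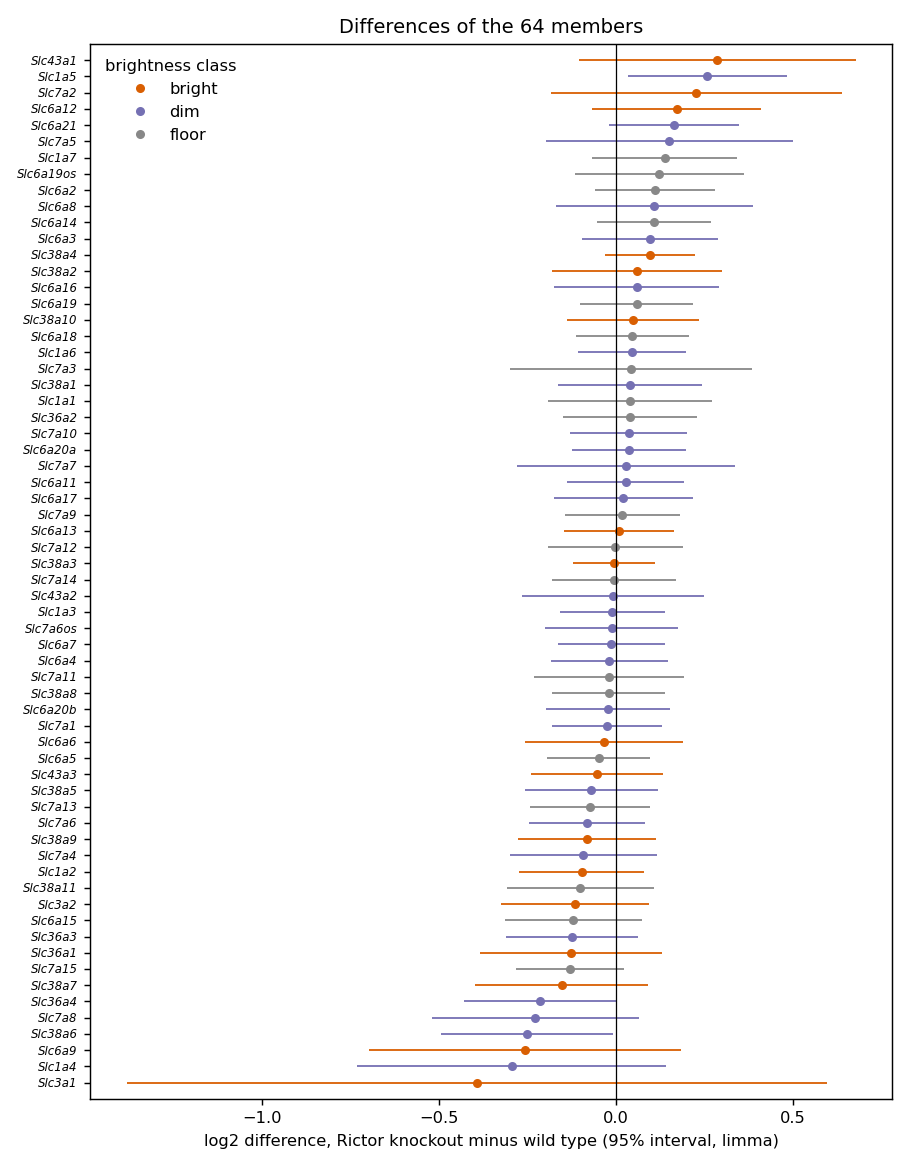
Log2 difference of each of the 64 members, Rictor knockout minus wild type (x axis), with its 95% interval from limma, in order of the difference and coloured by brightness class. Differences run from -0.39 for Slc3a1 to 0.29 for Slc43a1, and 0 members passed the correction over all probe sets.

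The dim members below a mean of 7 and the members at the floor had small differences, none of which passed. The 17 dim members below 7 had differences between -0.12 and 0.16, with limma adjusted p from 0.510 to 0.972. A higher percentile of the receptor genes as the limit placed 36 members at the floor, these 17 among them. The 19 members at the floor had differences between -0.13 and 0.14, with a median size of 0.048 against 0.064 over all 6238 genes at the floor. Of these, Slc7a15 and Slc6a14 had the smallest p. Slc7a15 read 5.60, 5.74, 5.73 and 5.76 on the knockout-labelled arrays and 5.76, 5.82, 5.88 and 5.90 on the wild-type arrays (difference -0.13, SE 0.07; limma adjusted p = 0.525), and Slc6a14 differed by 0.11 (limma adjusted p = 0.640). Values this low are compressed by background signal, so a difference at the floor can be understated.

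In the 5 members with the largest SD over the 8 arrays, Slc3a1, Slc1a4, Slc6a9, Slc7a2 and Slc43a1, the arrays numbered 1 differed in the direction opposite to arrays 2 to 4. Of the 28 members with a mean above 7, a limit chosen after their values were seen, 17 had a difference between the arrays numbered 1 (knockout-labelled minus wild type) opposite in sign to that between the means of arrays 2 to 4. The share over all genes with such opposite signs was not counted, so the 17 are not read as a trait of the members. In Slc3a1 the difference between the arrays numbered 1 was 2.18, and that between the means of arrays 2 to 4 was -1.25. In Slc1a4 they were 0.75 and -0.64, in Slc6a9 0.31 and -0.45, in Slc7a2 -0.60 and 0.50, in Slc43a1 -0.51 and 0.55, and in Slc7a5 -0.49 and 0.36. Igfbp1, a transcript that insulin represses in liver, was added after its values were seen. The reason was that it divides the arrays as Slc3a1, Slc1a4, Slc7a2 and Slc43a1 do. Values of Slc6a9 and Slc7a5 are not separated by that division. Igfbp1 read 7.76, 10.10, 10.10 and 9.65 on the knockout-labelled arrays, against 10.04, 7.40, 7.30 and 7.29 on the wild-type arrays. The 4 arrays high in Igfbp1 were the 4 lowest in Slc3a1, and no count or test was based on this division. Of members above 7, both sets of arrays gave the same sign in Slc38a4, Slc38a2, Slc1a2, Slc38a6, Slc36a4, Slc1a5, Slc7a8, Slc38a9, Slc38a10, Slc43a3 and Slc7a1.

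**Figure D4:**
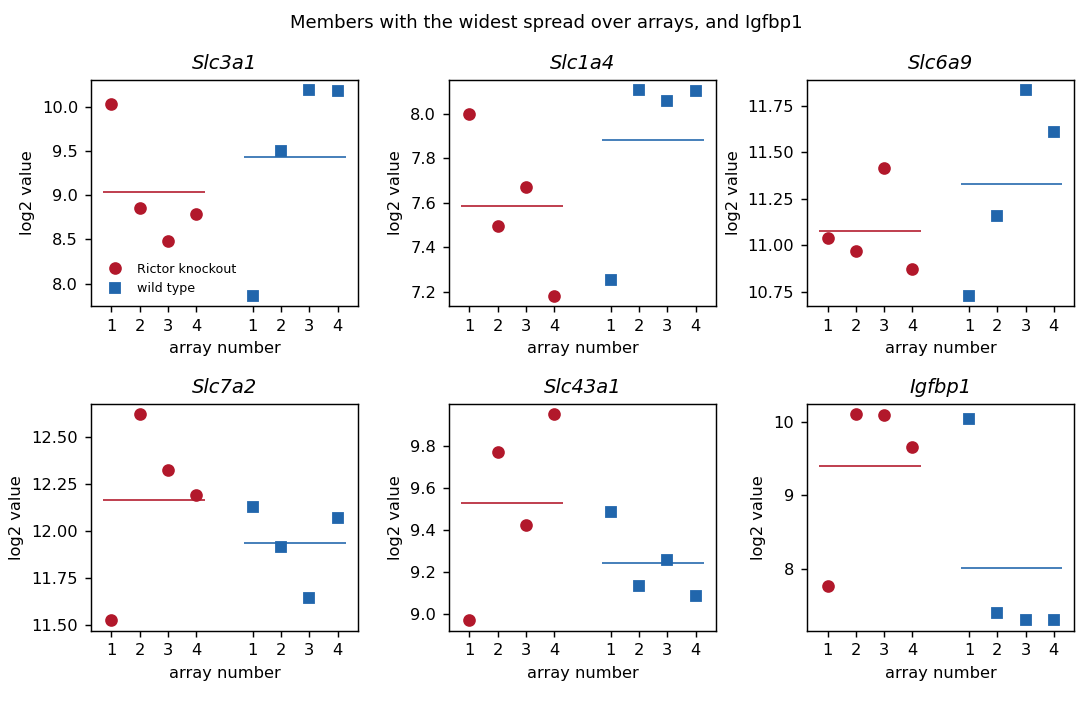
Log2 values of Slc3a1, Slc1a4, Slc6a9, Slc7a2, Slc43a1 and Igfbp1 on each array (x axis, array number; red circles, Rictor knockout; blue squares, wild type; lines, group means of 4 arrays). Knockout-labelled array 1 and wild-type array 1 each lie off their own group mean in the direction of the other group in Slc3a1, Slc1a4, Slc7a2, Slc43a1 and Igfbp1.

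Without both arrays numbered 1, 4 of the 64 members passed, or 6.25%, where 7.47% of all genes passed, so the share of members was near that background. The 2 higher members stand beside 2.39% of all genes and the 2 lower members beside 5.08%. Slc3a1 was lower by this fit, with a difference of -1.25 (SE 0.17; limma adjusted p = 0.000989), and so was Slc1a4, at -0.64 (SE 0.12; limma adjusted p = 0.00602). Slc43a1 was higher, at 0.55 (SE 0.13; limma adjusted p = 0.0184), as was Slc7a2, at 0.50 (SE 0.12; limma adjusted p = 0.0221). Groups of these 6 arrays did not overlap in 11 members, or 17.2%, against 24.8% of all genes. Both arrays were left out with their position known, and in these 4 genes they lay toward the other group, so no test can be read from these p-values. Leaving out knockout-labelled array 1 alone let 0 members pass, where 4.4% of all genes did. Array weights, which passed 3.55% of all genes, and leaving out wild-type array 1 alone, which passed 0.296%, likewise let 0 members pass.

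**Figure D5:**
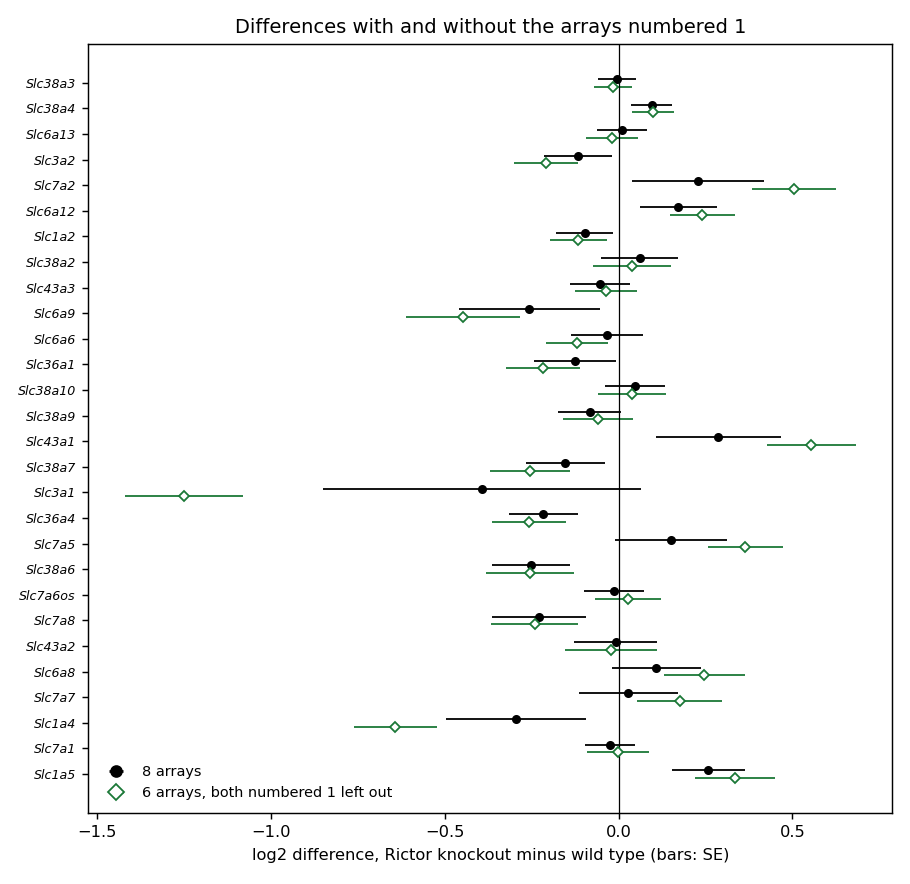
Log2 difference, Rictor knockout minus wild type (x axis, bars show the SE), of the 28 members with a mean above 7, with all 8 arrays (black circles) and with both arrays numbered 1 left out (green diamonds). Slc3a1 moves from -0.39 to -1.25, and Slc38a3 stays within 0.1 of 0 in both.

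Of the members whose promoters held the ATF4 letters, Slc7a11 holds them once on each strand within the same stretch, and it was at the floor on all 8 arrays. Slc1a4 holds them across its start site and differed by -0.29 over all 8 arrays (limma adjusted p = 0.640). Slc7a7 holds 2 copies on its own strand and differed by 0.03, and Slc6a21, an orphan member, holds 1 and differed by 0.16 (limma adjusted p = 0.510). A match is a description of these letters and not a site of binding.

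Genes around the transporters did not pass either. The amino acid response list of 24 genes, which includes Atf4, Asns and Trib3, had 15 higher and 9 lower means in the knockout-labelled group, 0 passing, and a median difference of 0.02. Its smallest p belonged to Cebpb, a factor that dimerises with ATF4 (9.09 ± 0.24 in the knockout-labelled group and 8.72 ± 0.08 in wild type; SD, n = 4 each; difference 0.37; limma adjusted p = 0.291), and to Fgf21, a hormone induced by ATF4 (difference 0.39; limma adjusted p = 0.387). The Fgf21 difference was 0.20 without knockout-labelled array 3. Cebpb passed in 3 alternatives: its difference was 0.46 with array weights, 0.45 with knockout-labelled array 1 left out and 0.48 with both arrays numbered 1 left out. Of 20 measured partners and regulators, 9 were higher and 11 lower, and 0 passed. Rraga, a Rag GTPase that relays lysosomal amino acids to mTOR complex 1, averaged 9.53 ± 0.11 in the knockout-labelled group and 9.25 ± 0.09 in wild type (SD, n = 4 each; difference 0.28; limma adjusted p = 0.313). Bsg, which encodes basigin, a chaperone of transporters, differed by -0.24 (limma adjusted p = 0.390). It passed at -0.34 when knockout-labelled array 1 was omitted (limma adjusted p = 0.0272) and at -0.33 when both arrays numbered 1 were (limma adjusted p = 0.0248).

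Carriers of amino acids and peptides outside these families included the gene with the largest difference in these 4 pathway lists. Of 22 measured, 9 were higher and 13 lower in the knockout-labelled group, 0 passed, and the median difference was -0.03. Slc25a38, the mitochondrial glycine carrier needed for heme synthesis, averaged 10.57 ± 0.40 in the knockout-labelled group and 11.24 ± 0.10 in wild type (SD, n = 4 each), with every knockout-labelled value below every wild-type value, by a narrow gap for knockout-labelled array 1. The difference was -0.67 (SE 0.16; limma adjusted p = 0.157). It passed at -0.82 with array weights and at -0.86 once knockout-labelled array 1 was left out, and at -0.85 once both arrays numbered 1 were. Sfxn1, a mitochondrial serine carrier, differed by -0.34 (limma adjusted p = 0.318) and passed with array weights (-0.41) and when both arrays numbered 1 were omitted (-0.52, limma adjusted p = 0.00155). Among 15 measured enzymes of glutamine, glutamate, glycine and the urea cycle 10 were higher and 5 lower, with 0 passing. Gclm, a subunit of the enzyme that starts glutathione synthesis, differed by -0.18 (limma adjusted p = 0.426) and Arg1, hepatic arginase, by 0.19 (limma adjusted p = 0.543). Both passed in the fits that left out knockout-labelled array 1 (Gclm -0.24, limma adjusted p = 0.0468; Arg1 0.32, limma adjusted p = 0.0234). They also passed once both arrays numbered 1 were omitted (Gclm -0.23, limma adjusted p = 0.0488, and Arg1 0.29, limma adjusted p = 0.0196). As for Cebpb and Bsg, no test can be read from the passes named here in fits that left out arrays numbered 1. Those fits passed 4.4% of all genes without knockout-labelled array 1 and 7.47% without both, and array weights passed 3.55%. The weights were estimated from these same values and were lowest for knockout-labelled array 1, at 0.467. No test is read from the array-weight passes of Cebpb, Slc25a38 and Sfxn1 either.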

How the data were processed

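Liver RNA from 8 mice was measured, 4 labelled Rictor knockout and 4 wild type, with 1 array each; the labels' protocols give 100 ng of total RNA per array. The authors' deposited values, 1 per probe set and array for 35556 probe sets, were taken as log2 because of their range and because the submitters' processing notes name RMA, beside Affymetrix Expression Console and Partek, without versions or order. RMA background correction and normalisation compress dim signals and hide a change shared by most genes. Array medians lay between 6.90 and 7.03. Of the probe sets 21789 had 1 gene symbol in the platform annotation and 1621 had several and were not used; 999 of the 19938 genes had more than 1 probe set and were read through the brightest.

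Differences are knockout-labelled minus wild type from limma 3.58.1 in R 4.3.3 (lmFit, eBayes with a mean-variance trend), two-sided, equal array weights, with Benjamini-Hochberg adjustment over the 21789 probe sets and a threshold of 0.05. No batch is given in the labels. The number of arrays limits the precision. The procedure was tested on simulated data in which a probe set had the same noise SD on every array. That simulation held no arrays lying toward the other group, so it says nothing about such arrays. Members and gene lists were chosen with earlier results of these data known. Genes were named by rule: every bright member, the pair of dim and of floor members with the smallest p, and the called genes of each list, or the pair with the smallest p where none passed; dim members with a mean above 7 were added after their values were seen. Same-numbered arrays correlated in their deviations from the group means between -0.125 and 0.0738, and no pairing was assumed. Alternatives were array weights, leaving out each array or both arrays numbered 1, a replicate block, quantile normalisation, median centring, a filter at the floor, no trend, and the mean over probe sets.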

Additional observations from a re-analysis of the deposited data

Results flagged for a closer look

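Arrays far from the other 3 of their group were sought in 80 groups of 4 values, and 8 were found whose gap to the nearest array exceeded Dixon's 95% critical share of the group's range. Chance flags about 1 in 20 such groups, but Igfbp1 and the dim members above 7 were added after their values were seen, so the count is not read against that share. Wild-type array 1 stood apart in Igfbp1 at 10.04 (nearest 7.40), in Slc1a4 at 7.25 (nearest 8.06) and in Slc7a1 at 7.51 (nearest 7.44). Knockout-labelled array 1 stood apart in Slc6a12 at 11.84 (nearest 12.20) and in Slc7a15 at 5.60 (nearest 5.73). The remaining arrays were knockout-labelled array 2 in Slc36a1 at 10.25 (nearest 10.14), wild-type array 4 in Slc6a8 at 7.94 (nearest 8.12) and knockout-labelled array 3 in Fgf21 at 7.50 (nearest 6.78).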

How the results depend on the processing

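The count of 0 members passing stayed at 0 with array weights, with any single array left out, after quantile normalisation or median centring, with no trend, with the filter at the floor, with the mean over probe sets, and with the replicate block, under which 0 of all genes passed too. It became 4 without both arrays numbered 1. Over all genes the count of 0 became 707 with array weights and 1489 without both arrays numbered 1, and single omissions gave 0 to 877: 877 without knockout-labelled array 1, 59 without wild-type array 1 and 0 without any other. The Rictor difference ranged from -0.030 to 0.15 over single omissions. Near-zero differences turned sign. With single arrays left out Slc38a2 ran from -0.016 to 0.16, Slc38a3 from -0.026 to 0.011, Slc43a2 from -0.10 to 0.060, Slc6a13 from -0.022 to 0.058, Slc6a6 from -0.13 to 0.024, Slc7a6os from -0.037 to 0.030 and Slc7a7 from -0.084 to 0.17. Array weights gave 0.041 for Slc43a2, -0.0047 for Slc6a13 and 0.015 for Slc7a6os. Without both arrays numbered 1 Slc6a13 was -0.018 and Slc7a6os 0.028. Quantile normalisation gave 0.020 for Slc43a2, -0.012 for Slc6a13 and 0.016 for Slc7a6os, and median centring 0.013 for Slc38a3, 0.0084 for Slc43a2 and 0.0053 for Slc7a6os. The cause of these turns was not tested. Of 606 values of 38 named genes under the alternatives, 559 kept direction and side of the threshold, 29 turned sign and 18 passed the threshold where the 8 arrays at equal weights had not. The bright class held 27 members with its limit at the median of all genes and 11 at their 90th percentile, and the floor class 36 at the 99th and 12 at the 90th percentile of the receptor genes.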
